A study of Mus musculus with 49 samples.

Results

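Kif1a, Fchsd1, Ehf, Pamr1, Gpnmb, Mecom and Vsig1 are 7 genes chosen by their difference in count level between CLiPs (chemically induced liver progenitors) and dediHeps (dedifferentiated hepatocytes) in monolayer culture. They are 7 of the 46078 gene identifiers in a table of transcript counts, and each symbol matched 1 identifier. Since the CPM of the 3 CLiP and 5 monolayer dediHep libraries chose them, those values are given below as a description with no test. Libraries of the other 14 conditions were not used for the choice, and tests of the 7 genes are given only there. Aggregates and spherical organoids of dediHeps, however, came from cultures whose monolayer libraries were used for it. In CLiPs, Kif1a, Fchsd1, Ehf, Pamr1 and Gpnmb were high and Mecom and Vsig1 were at or near 0, and in dediHeps Mecom and Vsig1 were the high ones.

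The study followed mouse hepatocytes that lose their mature state in culture and asked what the resulting cells can become. Both progenitor-like cells came from hepatocytes of wild-type C57BL/6J mice, aged 10 weeks. dediHeps (n = 5 cultures) were kept in a medium for hepatic progenitor cells with EGF at 20 ng/mL. CLiPs (n = 3) were made, per the methods, by a published recipe with small-molecule inhibitors, among them A-83-01 (of the TGF-β receptor) and CHIR99021 (of GSK3), so the medium and the cell state cannot be told apart. The hepatocyte series began with freshly isolated cells (FH) and went on to monolayers at 3 h, then at 1, 2 and 4 days, and last at 1 and 2 weeks (n = 3 each). It also held 1-week cultures with verteporfin, an inhibitor of Yap, at 0.3 µM or with its solvent DMSO (n = 2 each). dediHep aggregates (n = 3) were grown in low-attachment wells. Spherical organoids of dediHeps (dediHep-SOs, n = 3) were grown in Matrigel with Wnt3a and CHIR99021 in the medium. Budding organoids (dediHep-BOs, n = 3) came from dediHeps transduced with Cdx2, a factor of intestinal identity. Per the paper, Wnt3a and CHIR99021 were later taken out of the medium of these BOs. Organoids of intestine were FIPC-SOs (n = 3), from progenitor cells of the fetal intestine at E13.5, and ISC-BOs (n = 4), from adult crypts of mice aged 10 weeks. The aggregates and SOs derive from cultures that also gave dediHep libraries. The labels name no animals, so that p-values measure the spread between these cultures.

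CEL-seq2 was used, a method that tags each molecule at its 3′ end with a unique molecular identifier (UMI), so that counts are of molecules. Levels are CPM, the count scaled to a library total of 1e6, and totals ran from 861047 to 3872936 counts over 49 libraries, with 1936106 to 3872936 in CLiPs and 1631842 to 2848505 in dediHeps. A level of 0 allows up to 0.775 to 3.48 CPM, which is 3 counts in a library, by counting error alone. Because only 3′ ends were read, transcript length does not enter these levels. In bulk libraries, fewer cells of a type and less RNA per cell cannot be told apart. Hepatocyte markers (10 genes, Alb among them) summed to 15251 to 16578 CPM in FH, 1953 to 8029 in CLiPs and 1173 to 5154 in dediHeps. Counts per gene have an upper limit, given below with the processing, which may hold down abundant markers. In CPM that limit depends on the library total, so these sums describe each group and are not compared between groups. Tat, a late liver enzyme, had no count in dediHeps, and Cyp2e1 had none in CLiPs. Cholangiocyte markers (8 genes, Krt19 and Sox9 among them) summed to 1866 to 2621 CPM in CLiPs and 1097 to 1881 in dediHeps.

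The 7 genes belong to unrelated families. Kif1a encodes a kinesin motor that carries synaptic and dense-core vesicles along microtubules and is best known in neurons. Fchsd1 encodes a protein with an F-BAR domain, a membrane-curving module, and SH3 domains. Ehf is an ETS transcription factor of epithelia. Pamr1 is a secreted protein with CUB and sushi domains and a protease-like domain that lacks protease activity. Gpnmb is a transmembrane glycoprotein related to Pmel, found in melanosomes and lysosomes and in macrophages. Mecom encodes the zinc-finger factors Evi1 and Mds1-Evi1, the latter with a PR domain, and is known from blood stem cells. Vsig1 is a junctional protein of the immunoglobulin superfamily, best known in stomach epithelium.

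In GENCODE M21 (GRCm38) Kif1a lies on chromosome 1 from 93015464 to 93101951 (minus strand), Ehf on chromosome 2 from 103263433 to 103303278 (minus) and Pamr1 on chromosome 2 from 102550012 to 102643041 (plus). Gpnmb lies on chromosome 6 from 49036546 to 49070929 (plus), Mecom on chromosome 3 from 29951296 to 30548008 (minus) and Vsig1 on chromosome X from 140907608 to 140939472 (plus). Fchsd1 (minus strand) overlaps Rell2 on the other strand, which has 67 counts in CLiPs against 1611 of Fchsd1. Mecom overlaps 7 other annotated genes, of which Gm38197, on the same strand, has the most counts, 21 in dediHeps against 454 of Mecom. In FIPC-SOs Gm38197 has 211 counts against 729 of Mecom. Whether the counting used strand is not given in the sources used here, so that reads of overlapping genes may not be fully separated.

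RefSeq promoter windows (GRCm38.p6, from 250 bases before to 50 after a start site) were at hand for 4 of the 7 genes, in 6 windows: Kif1a and Mecom with 2 each, Gpnmb and Vsig1 with 1 each. They were read for 8 short motifs on both strands, since Mecom and Vsig1, and Kif1a and Gpnmb, had similar orders of levels across the 16 conditions (Pearson r 0.83 and 0.76). The stretches that hold a match are shown on the strand of the gene, with the match in capitals.
Gpnmb, AP-1 letters TGANTCA: caggggcaagTGACTCAtgagcacgag
Gpnmb, HNF4 letters CAAAGTCCA: agagaaaccaCAAAGTCCAccaacgacca
Gpnmb, CDX letters TTTATNG read on the other strand: catccgaagtCAATAAAtagatgccag
Mecom, TCF/LEF letters CTTTGAT read on the other strand: agatctccaaATCAAAGtgataaatcg
Mecom, CDX letters TTTATNG: ccattggttgTTTATCGgcagaaatct
The Gpnmb stretches lie at chr6:49036516-49036542, chr6:49036337-49036365 and chr6:49036492-49036518, and those of Mecom at chr3:30509781-30509807 and, in its other window, chr3:30013387-30013413. Of all 32851 windows, 7.81% hold the AP-1 letters, 0.475% the HNF4 letters, 10.9% the CDX letters and 3.73% the TCF/LEF letters. The GATA letters AGATAA stand in 11.2% of all windows and the ETS letters GGAAGT in 23.8%. The TEAD letters GGAATG stand in 14.7% and the FOXA letters TGTTTAC in 3.65%. None of these 4 was in the 6 windows. No motif was in the windows of Kif1a or Vsig1. Such matches describe the letters of these windows only.

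CLiPs had the highest mean level of Kif1a, Fchsd1, Pamr1 and Gpnmb among the 16 conditions. dediHeps had the highest of Vsig1. For Ehf and Mecom the highest mean was in dediHep-SOs, though Mecom was about equal in dediHep-BOs (161.9 and 161.2 CPM). Neighbouring conditions in these orders mostly overlapped: of 15 neighbouring pairs, libraries did not overlap in 2 for Kif1a, Fchsd1 and Ehf, in 1 for Pamr1, Mecom and Vsig1, and in 0 for Gpnmb. For Fchsd1 and Pamr1 that included the step from CLiPs to the next condition, dediHep-SOs.

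**Figure D1:**
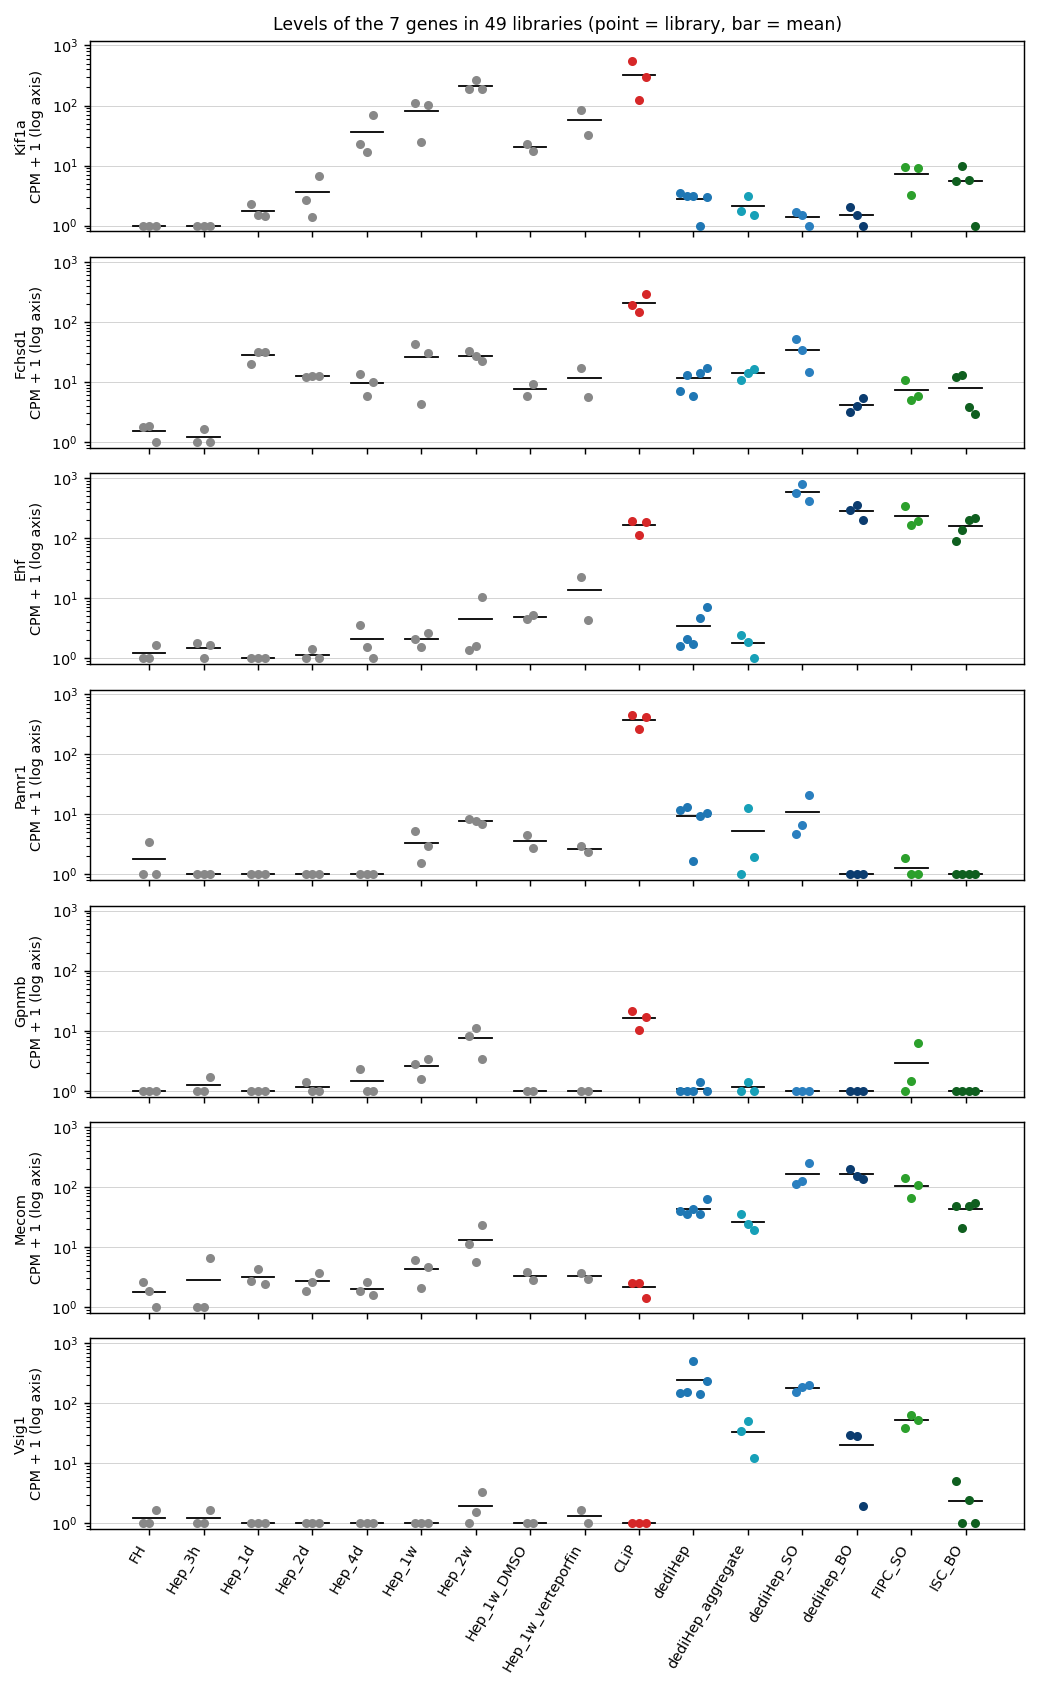
CPM + 1 (log axis) of each of the 7 genes in the 49 libraries, by condition. Points are libraries and bars are means. The highest means of Kif1a, Fchsd1, Pamr1 and Gpnmb are in CLiPs (red), that of Ehf in dediHep-SOs and that of Vsig1 in dediHeps. Mecom is about equal in dediHep-SOs and dediHep-BOs (161.9 and 161.2 CPM).

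In CLiPs Kif1a stood at 559.9, 121 and 296 CPM, and in the 5 dediHep libraries at 0 to 2.45 CPM with a median of 2.11. The pooled counts gave a 164-fold higher level in CLiPs. CLiP replicate 1 was far above replicate 2, yet every CLiP library was far above every dediHep library.

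Fchsd1 stood at 193, 145 and 287 CPM in CLiPs and at 4.91 to 16.3 CPM in dediHeps (median 12.1), a 19.3-fold difference of pooled counts. This was the smallest ratio of the 5 genes high in CLiPs, and dediHeps had counts of the gene in all 5 libraries. Fchsd1 lies on chromosome 18 from 37957431 to 37969774.

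Pamr1 stood at 444, 262 and 417 CPM in CLiPs and at 0.702 to 12.1 CPM in dediHeps (median 9.69), 45.8-fold apart. dediHep replicate 3 held 2 counts of it, and the other 4 dediHep libraries 8.32 to 12.1 CPM.

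Ehf stood at 189.6, 114 and 181 CPM in CLiPs and at 0.613 to 6.12 CPM in dediHeps (median 1.06), 62.4-fold apart.

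Gpnmb was the least abundant of the genes high in CLiPs. It had 40, 36 and 37 counts there (20.7, 9.30 and 15.8 CPM) and 1 count over all 5 dediHep libraries, a ratio of 149 with a counting interval of 26.2 to 5930.

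Mecom had 10 counts over the 3 CLiP libraries, at 1.55, 1.55 and 0.427 CPM, and stood at 34.8 to 61.2 CPM in dediHeps (median 38.6), 34.5-fold higher there.

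Vsig1 had no count in any CLiP library and stood at 142 to 515 CPM in dediHeps (median 153), at least 709-fold higher there with 3 counts over the CLiP group as the floor.

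In none of the 7 did the libraries of CLiPs and dediHeps overlap. Since the 7 were chosen for their difference there, nothing is read from this, and the share of all genes without overlap was not counted. Over all genes, 352 of 11567 tested (3.04%) passed an FDR under 0.1 with a log2 fold change over 2 in either direction, which is the threshold for genes termed called below, 191 higher in CLiPs (1.65%) and 161 lower (1.39%). A gene entered a fit when its counts passed a low-count filter in about as many libraries as the smallest group holds. A member with few counts in 1 group entered through a group where it is high and had to differ, so that counts of members called are printed beside the share of all genes but are not read against it.

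Relatives of the 7 genes were set out in 8 family lists. Of the kinesin-3 motors other than Kif1a, 0 of 5 tested were called between CLiPs and dediHeps (median log2 fold change 0.22, against −0.03 over all genes). Of F-BAR genes 0 of 13 were called (median 0.02). Of ETS factors 1 of 15 was called, Etv4, which is induced by growth-factor signals and was lower in CLiPs (log2 fold change −3.44, SE 0.752, edgeR FDR 0.0451; 2.12 against 23.9 CPM). Of PR-domain genes 0 of 8 were called (median 0.18). Of the lysosomal and MiT/TFE genes near Gpnmb 0 of 21 were called, with 16 above 0 (median 0.93). Of junctional immunoglobulin genes 1 of 8 was called, Vsig10l, at 11.6 CPM in CLiPs and 1.86 in dediHeps (2.70 on the log2 scale, SE 0.541, FDR by edgeR 0.0336). Of CUB and sushi proteases of complement 0 of 4 were called, with all 4 tested above 0 (median 1.18). Of genes of neuroendocrine cells and vesicle transport 1 of 6 was called, Scg5, a chaperone of a prohormone convertase, with means of 7.52 CPM in CLiPs and 0.451 in dediHeps (4.17 on the log2 scale, SE 0.959, FDR by edgeR 0.0520). Chga and Chgb, granins that mark endocrine granules, averaged 0.827 and 0.0861 CPM in CLiPs. In the lists with none called by edgeR, 1 of the kinesin-3 genes, 2 of the F-BAR, 2 of the PR-domain, 10 of the lysosomal and 1 of the complement genes had an unadjusted p under 0.05. DESeq2 called 0, 1, 1, 0 and 0 of them.

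Macrophages express Gpnmb, so their markers were read beside it. In CLiPs 6 of 10 macrophage markers had no count (Ptprc, Adgre1, Clec4f, Cd5l, C1qa and Tyrobp), and Lyz2 and C1qb had 1 count each over the 3 libraries. The list nevertheless summed to 79.0 to 129 CPM in CLiPs against 1.53 to 11.6 in dediHeps, nearly all of it from Csf1r, the receptor of macrophage colony-stimulating factor, with 248, 302 and 303 counts. The part of such cells in Gpnmb of CLiPs was not tested. All 4 melanocyte markers had no count in CLiPs. Fibroblast and stellate markers summed to 3.61 to 25.2 CPM in CLiPs and to 0.528 to 3.06 in dediHeps, and endothelial markers to 0.517 to 1.81 and 0.613 to 1.06. Mesothelial markers summed to 117 to 198 CPM in CLiPs and 461 to 1297 in dediHeps. Intestinal markers summed to 60.9 to 127 CPM in CLiPs, where Cdx1, Cdx2 and Isx had no count, and to 63.1 to 1565 in dediHeps. Gastric markers, read beside Vsig1, summed to 5.42 to 10.7 CPM in CLiPs and 4.58 to 36.9 in dediHeps.

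Hepatocytes in culture showed when each gene appears without the CLiP recipe. All time points were compared with the same FH libraries. Kif1a and Fchsd1 rose, on different days, Mecom and Pamr1 were higher at 2 weeks, and Ehf, Gpnmb and Vsig1 were too low for the low-count filter and are given by their counts.

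Fchsd1 had 2 counts in FH and 1 at 3 h, at 0 to 0.826 CPM. At 1 day it stood at 19.2 to 31.0 CPM, higher than in FH by 4.95 on the log2 scale (SE 0.916, FDR by edgeR 0.000216) and 52.9-fold by pooled counts, with a counting interval of 14.4 to 440.0. At 2 days it averaged 11.4 ± 0.278 CPM (SD, n = 3), and at 4 days at 12.3, 4.88 and 8.82. It stood at 41.9, 3.34 and 29.4 CPM at 1 week and at 31.7, 25.6 and 20.9 CPM at 2 weeks. Each time point from 1 day on was called (log2 fold changes 4.95, 3.58, 3.14, 4.66 and 4.87, edgeR FDR 0.000155 to 0.0154). No library of these cultures came near the lowest CLiP library, 145 CPM.

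Kif1a had no count in FH or at 3 h. Its levels were 1.31, 0.476 and 0.463 CPM at 1 day and 1.70, 0.410 and 5.78 CPM at 2 days, which did not pass the test (edgeR FDR 0.370 and 0.115). DESeq2 called the 2-day difference (FDR 0.0449), as did edgeR without replicate 2 of that time (FDR 0.0656). At 4 days it stood at 21.9, 15.7 and 68.2 CPM, at least 44.4-fold above FH (edgeR FDR 0.000266). At 1 week it stood at 110.0, 23.4 and 102 CPM, at least 113-fold (edgeR FDR 2.88e-05), and at 2 weeks at 185, 269.9 and 186 CPM, at least 284-fold (edgeR FDR 1.97e-06). The 2-week libraries lay within the range of CLiPs, and pooled counts were 1.29-fold higher in CLiPs. dediHeps, which come from such cultures, had 18 counts of Kif1a in 5 libraries against 1108 in the 3 libraries at 2 weeks, 128-fold less.

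**Figure D2:**
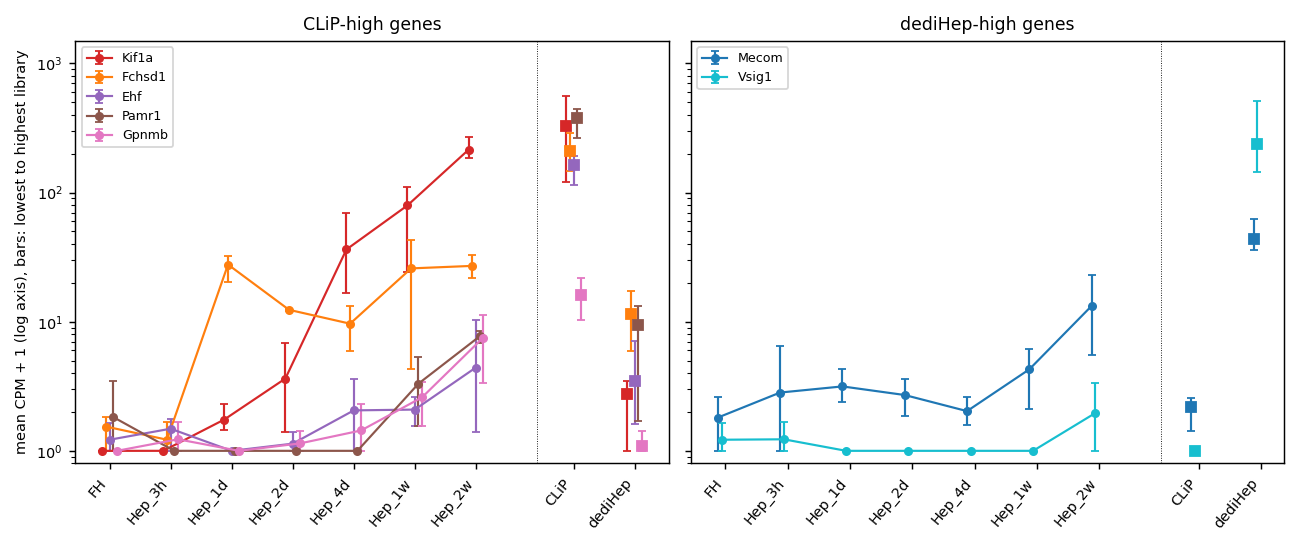
Mean CPM + 1 (log axis) of the 5 genes high in CLiPs (left) and the 2 high in dediHeps (right) over hepatocyte culture, with CLiPs and dediHeps right of the dotted line. Bars span the lowest to the highest library. Kif1a climbs to 185 to 269.9 CPM at 2 weeks, within the range of CLiPs, whereas Pamr1 and Ehf stay below 10 CPM.

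Mecom had 3 counts in FH, at 1.60, 0.826 and 0 CPM. At 2 weeks it stood at 10.2, 4.54 and 22.1 CPM (log2 fold change 3.18, SE 1.08, edgeR FDR 0.0192; 13.6-fold by pooled counts, counting interval 4.41 to 68.1). At the 5 earlier times it was not called (edgeR FDR 0.413 to 0.871). The 2-week libraries did not reach the 34.8 CPM of the lowest dediHep library.

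Pamr1 had 3 counts in FH, all in replicate 2, and none from 3 h to 4 days. It stood at 4.37, 0.556 and 2.02 CPM at 1 week and at 7.44, 6.82 and 5.81 CPM at 2 weeks (log2 fold change 2.35, SE 1.10, edgeR FDR 0.0921; 9.24-fold, counting interval 2.92 to 46.9). The 2-week call rests on an FDR near the threshold, since DESeq2 gave 0.231, and leaving out FH replicate 1 or 3 or any 2-week library gave 0.113 to 0.259. Without FH replicate 2, which holds the FH counts, the FDR was 0.0189. At 2 and 4 days the gene also passed the test as lower (edgeR FDR 0.0834 and 0.0855), which rests on 3 counts in 1 FH library, so no fold is given. The level at 2 weeks resembled dediHeps (pooled counts 1.10-fold higher in dediHeps, counting interval 0.733 to 1.67) and was 50.3-fold below CLiPs.

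Ehf had 10 counts at 2 weeks, 8 of them in replicate 3 (0.392 to 9.29 CPM), and no more than 8 counts over the 3 libraries of any earlier time. Vsig1 had 3 counts at 2 weeks, 1 in FH, 1 at 3 h and none between, so it was not detectable at this depth in the cultures from 1 day to 1 week.

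Gpnmb had 0 counts in FH, 12 at 1 week (1.82, 0.556 and 2.42 CPM) and 38 at 2 weeks (7.05, 10.2 and 2.32 CPM), at least 9.75-fold above FH at 2 weeks. Its counts at 2 weeks were 18, 18 and 2. Macrophage markers summed to 272.1, 272 and 13.9 CPM in the same libraries, with 281, 211 and 4 counts of Lyz2 and 218, 101 and 0 of C1qb. At 1 week they summed to 141, 28.4 and 2.82 CPM, and there the library with the fewest held the most Gpnmb. Fibroblast and stellate markers summed to 201, 330.1 and 69.7 CPM in the 2-week libraries. The part of these cells in Gpnmb of the cultures was not tested. At each time from 1 day on, replicate 3 held the lowest sum of macrophage markers, 2.31 to 13.9 CPM, against 21.7 to 272.1 in the other two. The Gpnmb levels at 2 weeks and in CLiPs overlapped, with 10.2 CPM in 2-week replicate 2 and 9.30 in CLiP replicate 2.

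**Figure D3:**
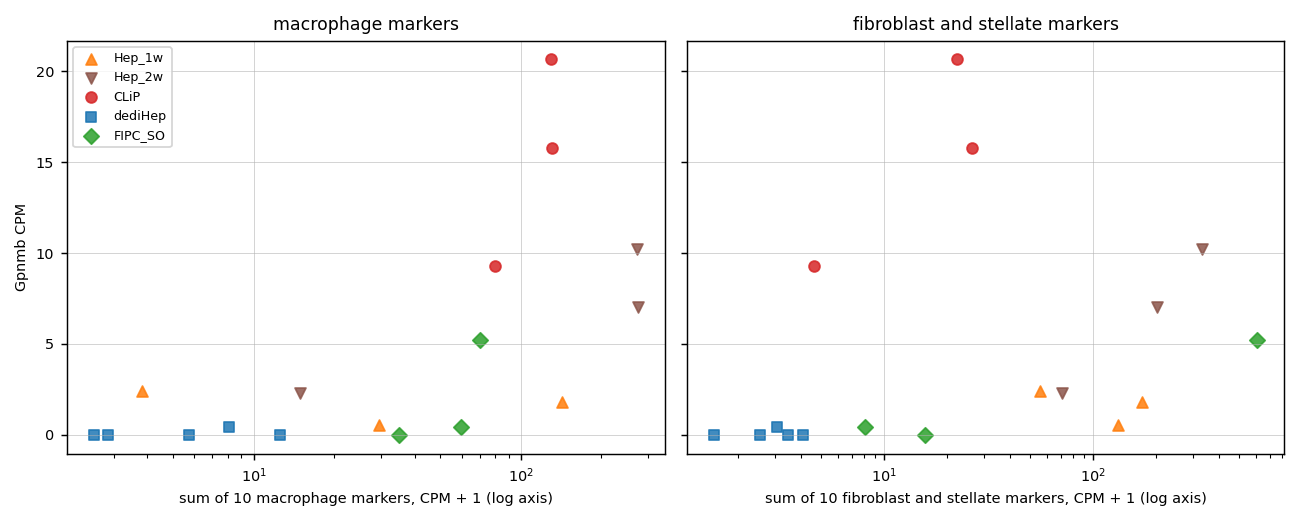
Gpnmb CPM against summed CPM + 1 (log axis) of the 10 macrophage markers (left) and the 10 fibroblast and stellate markers (right), 1 point per library in 5 conditions. In the left panel CLiPs (red circles) lie at 79.0 to 129 CPM, nearly all of it Csf1r, with Gpnmb at 9.30 to 20.7 CPM, and in both panels the 2-week library with the least Gpnmb lies left of the other two and the FIPC-SO library with the most lies furthest right of its group.

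Of the 4 members tested, 0 were called at 3 h (edgeR, with 0 at an unadjusted p under 0.05 and 0 by DESeq2), beside 6.91% of all genes (3.06% higher, 3.85% lower). At 1 day 1 was called, beside 17.4% of all genes (6.57% higher, 10.9% lower). At 2 days 1 was called higher and 1 lower, beside 21.3% (9.21% and 12.1%), and at 4 days 2 higher and 1 lower, beside 23.8% (11.4% and 12.4%). At 1 week 2 were called higher, beside 25.9% (13.2% and 12.8%), and at 2 weeks 4 higher, beside 29.5% (14.1% and 15.3%). Kif1a, Fchsd1, Pamr1 and Mecom held 0, 2, 3 and 3 counts in FH and entered the fit through the cultures, where they are high, so that nothing is read from these counts. At 2 weeks 3 of the 4 had an unadjusted p under 0.05, and DESeq2 called 3. A further fit left out 1-week replicate 1 and 2-week replicates 1 and 2, which held the highest sums of macrophage markers at those times. Kif1a, Fchsd1 and Mecom then had log2 fold changes of 11.41, 4.71 and 4.25 at 2 weeks, with 1 library at that time that is assumed to vary like the others. Other libraries with macrophage counts stayed in, among them FH, where the markers summed to 88.6 to 240 CPM. Pamr1 did not pass the filter of that fit. Ehf did, with a log2 fold change of 4.45 at 2 weeks that rests on the lone library of that time.

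The families were read at 2 weeks against FH, beside the 29.5% of all genes called there. The shares of F-BAR, ETS and PR-domain genes called (5 of 14, 6 of 15 and 2 of 6) lie near that background, and no test compared the families. Thus 4 of 14 F-BAR genes were called higher and 1 lower, with Srgap3, a GTPase-activating protein, at 101 CPM from 2.23 in FH (4.75, SE 0.606, edgeR FDR 1.07e-06), Srgap1 next (3.25, FDR 0.0150) and Gas7 lower (−5.50, FDR 3.21e-05). Of ETS factors 5 of 15 were called higher and 1 lower, led by Etv4, from no count to 118 CPM (edgeR FDR 4.92e-07), and Elf4 (log2 fold change 5.54, FDR 1.30e-06), while Erg, an endothelial factor, was lower (−4.20, FDR 0.00788). Of neuroendocrine and vesicle genes 2 of 5 were called higher, Uchl1, a deubiquitinase of neurons, from no count to 286 CPM (edgeR FDR 2.30e-08), and Rab27b (3.37, FDR 0.00481), and Madd lower (−2.24, FDR 0.00428). All 7 complement proteases of the CUB and sushi list were called lower, C1ra from 467 to 0.842 CPM (−9.38, edgeR FDR 3.58e-12) and C1s2 from 26.7 CPM to no count (FDR 0.000102). Kif14, a mitotic kinesin, was the 1 of 5 kinesin-3 genes called (4.24, FDR 0.00467). Prdm11 and Prdm8 were the 2 of 6 PR-domain genes called, both higher (FDR 0.000310 and 0.000267). Of the lysosome list, Cd63 was called higher (6.32, FDR 1.36e-10) and Acp5 lower (−2.54, FDR 0.000293) among 23 tested. Of junctional immunoglobulin genes 0 of 7 were called by edgeR or DESeq2, with 3 at an unadjusted p under 0.05.

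Verteporfin was compared with DMSO at 1 week. Kif1a stood at 83.3 and 31.1 CPM with verteporfin and at 21.6 and 16.7 with DMSO, so that the groups did not overlap, but the difference was not called (log2 fold change 1.62, SE 0.474, edgeR FDR 0.320). The 1-week libraries of the time course, with neither, ran from 23.4 to 110.0 CPM. Both verteporfin libraries lay within that range and both DMSO libraries below it, and no test compared them. Without verteporfin replicate 2, Kif1a was called (2.19, edgeR FDR 3.62e-05), with the lone library assumed to vary like the others. Fchsd1 stood at 16.3 and 4.63 against 4.87 and 8.33 CPM (log2 fold change 0.67, SE 0.627, edgeR FDR 0.791), and its sign turned without verteporfin replicate 1 (−0.52). Ehf, not tested, stood at 21.7 and 3.31 CPM with verteporfin and 3.48 and 4.17 with DMSO. Of the 2 members tested, 0 were called, beside 0.269% of all genes (0.240% higher, 0.0288% lower). Kif1a had an unadjusted p under 0.05, and DESeq2 called neither, with no adjusted p for 1 of them. Among relatives, Uchl1 (2.02, FDR 0.0450) and Rab27b (2.73, FDR 0.0976) were called higher, both of the 2 neuroendocrine and vesicle genes tested (edgeR). DESeq2 called 1 of these 2, with no adjusted p for 1.

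Aggregates of dediHeps were compared with the same FH libraries, so these differences share their controls with the time course. The aggregates came from cultures whose dediHep libraries helped to choose the genes, so these tests are not independent of the choice. Fchsd1, Mecom and Vsig1 were the 3 of 7 that passed the filter, with 2, 3 and 1 counts in FH, so they entered through the aggregates and could not have been called lower. All 3 were called higher, and nothing is read from that count. Of all genes, 6.78% were called higher, 9.78% lower and 16.6% in either direction. Vsig1 stood at 33.0, 50.5 and 11.4 CPM against 1 count in FH (log2 fold change 6.05, SE 0.982, edgeR FDR 0.00110). Mecom stood at 34.5, 23.3 and 18.5 CPM (4.31, SE 0.736, edgeR FDR 0.00150). Fchsd1 stood at 9.54, 13.2 and 15.6 CPM (3.87, SE 0.743, edgeR FDR 0.00300). Kif1a had 7 counts in aggregates and Gpnmb 1. Pamr1 stood at 0, 11.9 and 0.946 CPM, so 1 aggregate library carried nearly all of it. Of their relatives, 2 of 10 ETS factors were called, both higher, Elf4 (5.11, edgeR FDR 0.000248) and Ets2 (2.41, FDR 0.00247), a share near that of all genes. Of complement proteases 2 of 6 were called lower, Masp2 (−4.67, FDR 0.00184) and C1s2 (−3.30, FDR 0.0218). Syt1, a calcium sensor of synaptic vesicles, was called lower among 2 neuroendocrine and vesicle genes (−4.09, FDR 0.00182), and of 21 lysosome genes Cd63 was called higher (6.17) and Npc1 lower (−2.57). Of the 4 kinesin-3, 9 F-BAR, 1 PR-domain and 4 junctional genes tested, 0 were called by edgeR or DESeq2, with 0, 6, 0 and 1 at an unadjusted p under 0.05. Set beside monolayer dediHeps as a description, the aggregates held 8.10-fold less Vsig1 (142 CPM was the lowest dediHep library and 50.5 the highest aggregate) and 1.75-fold less Mecom, by pooled counts.

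dediHep-SOs were compared with dediHep aggregates. Ehf went from 4 counts in the aggregates to 569, 794 and 407 CPM in SOs (log2 fold change 9.43, SE 0.647, edgeR FDR 4.88e-06), with no overlap, having passed the filter through the SOs. Every SO library held more Ehf than every CLiP library. Mecom rose to 109.9, 122 and 253 CPM (2.44, SE 0.415, edgeR FDR 0.00144). Vsig1 rose to 152, 187 and 201 CPM, 5.45-fold by pooled counts (edgeR FDR 0.00413, SE of the log2 fold change 0.467). The Vsig1 difference fell below the fold threshold without aggregate replicate 3 (1.88, edgeR FDR 0.00622) and with cultures as a block (1.84, FDR 0.0381). These 3 of 5 members tested were called, beside 8.06% of all genes higher in SOs, 6.85% lower and 14.9% in either direction. Fchsd1 stood at 49.8, 33.4 and 13.7 CPM in SOs (1.14, SE 0.494, edgeR FDR 0.117) and Pamr1 at 3.75, 5.56 and 20.0 (0.83, SE 0.967, edgeR FDR 0.564). Without aggregate replicate 2, Pamr1 was called higher in SOs (3.72, FDR 0.0474), and without SO replicate 3 its sign turned (−0.19). Kif1a had 3 counts in SOs and Gpnmb none.

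Of ETS factors other than Ehf, 14 of 16 tested had a log2 fold change above 0 in SOs and 2 below (median 1.14, against 0.04 over all genes). The 6 called were all higher. They were Spdef, a factor of goblet and secretory cells (from no count to 41.2 CPM, edgeR FDR 8.64e-05), Elf3, an epithelial factor (69.8 CPM from 5.86, 3.30, SE 0.487, FDR 0.000585), Etv4, Etv5, Etv6 and Elk3. Of junctional immunoglobulin genes 3 of 8 were called higher. Among them were Gpa33, an antigen of intestinal epithelium, at 631 CPM in SOs and 9.50 in aggregates (5.78, SE 0.769, edgeR FDR 0.000320), and Esam (5.11, FDR 0.000577). Prdm16 rose among 5 PR-domain genes (62.0 against 3.47 CPM, 3.87, FDR 0.0147), Kif14 among 5 kinesins (5.34, FDR 0.000154) and Rab27b among 3 vesicle genes (2.80, FDR 0.0195). DESeq2 called 0 of the PR-domain genes. Mitf, a relative of the factors that drive lysosome genes, fell to 0.114 CPM from 8.69 (−5.63, SE 0.792, FDR 0.000440), with Ctsl also lower (−2.11, FDR 0.0133) and Cd68 higher (FDR 0.0144) among 22 tested. All 4 complement proteases tested were lower, C1s1 (−7.21, FDR 3.39e-05) and C1ra (−3.87, FDR 3.18e-05) by the most. Of F-BAR genes 0 of 11 were called by edgeR or DESeq2, with 1 at an unadjusted p under 0.05.

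**Figure D4:**
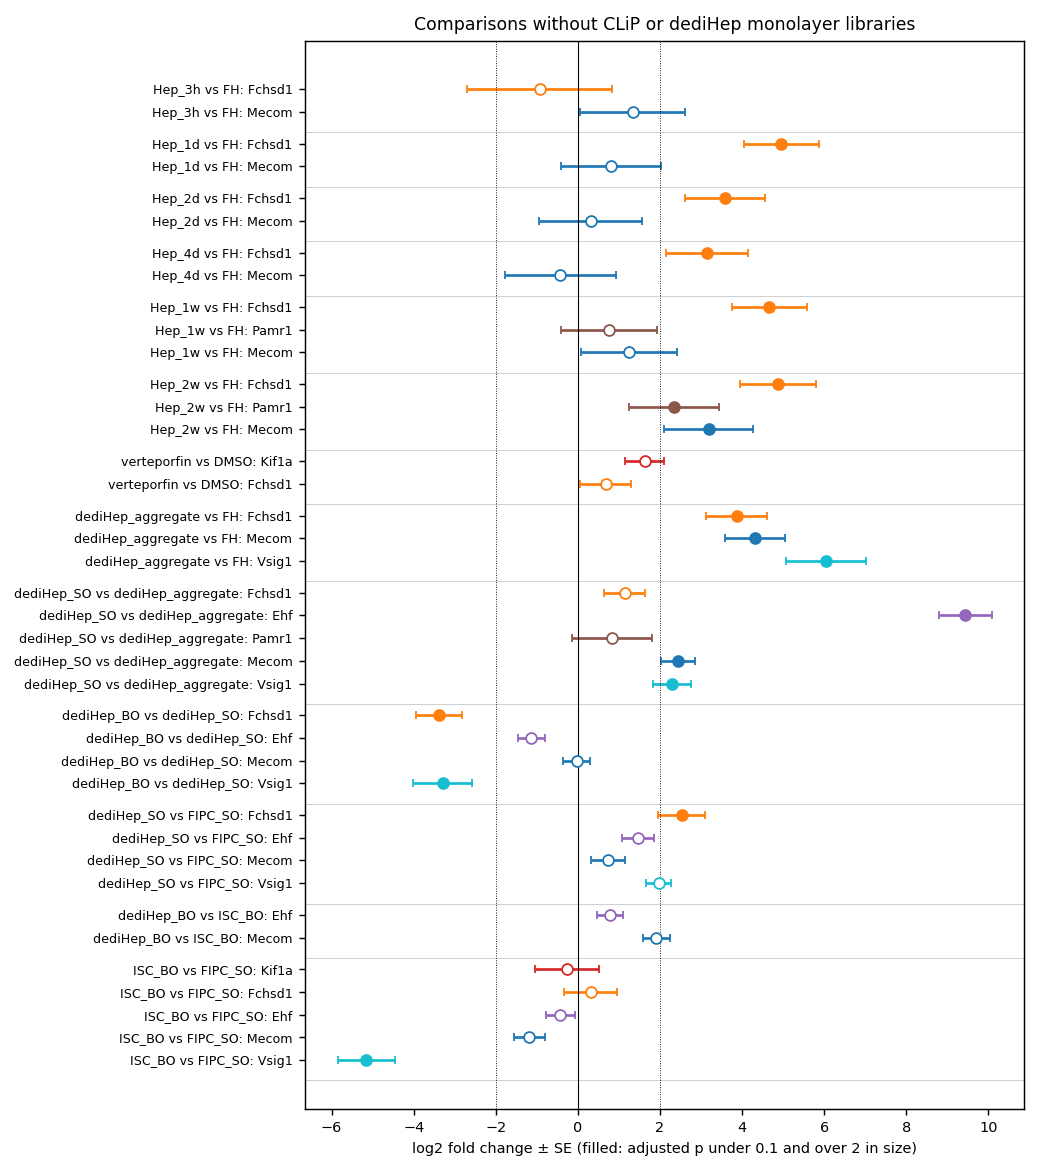
Log2 fold change ± SE (edgeR) of each member tested, in the comparisons with no CLiP or monolayer dediHep library. Filled points are called (FDR under 0.1 and log2 fold change over 2), dotted lines mark −2 and 2, and members with no count in 1 of the groups are left out. Ehf is at 9.43 in dediHep-SOs against aggregates, and Fchsd1 lies above 3 from 1 day of culture on.

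Budding organoids of Cdx2-transduced dediHeps were compared with dediHep-SOs. Per the paper, Wnt3a and CHIR99021 were also removed for BOs, so transduction and medium cannot be told apart. Fchsd1 fell to 2.15, 3.01 and 4.31 CPM (log2 fold change −3.39, SE 0.559, edgeR FDR 0.00193) and Vsig1 to 28.5, 27.1 and 0.957 CPM (−3.30, SE 0.726, FDR 0.00897), without overlap. These were 2 of 4 members tested, beside 5.68% of all genes lower in BOs, 5.60% higher and 11.3% in either direction. Ehf stood at 296, 351 and 196 CPM in BOs, below the SOs but within the fold threshold (−1.13, SE 0.325, edgeR FDR 0.0282). Mecom was at 196, 152 and 136 CPM (−0.03, SE 0.335, edgeR FDR 0.954). Pamr1 had 60 counts in SOs and none in BOs, at least 17.5-fold lower. BO replicates 1 and 2 held fibroblast and stellate markers at 320.5 and 341 CPM against 5.26 in replicate 3, and their part in the result was not tested. Chgb, Chga and Pcsk1 of the neuroendocrine list were called higher, as 3 of 6 tested (Chgb 9.74 and Chga 9.52, edgeR FDR 7.75e-05 and 0.000126), whereas Kif1a had 3 counts in either kind of organoid. Elk3 (−4.35, FDR 0.000106) and Ets1 (−2.96, FDR 0.0122) fell among 16 ETS factors, Srgap3 fell (−3.48, FDR 0.00303) and Fchsd2, the closest relative of Fchsd1, rose (2.04, FDR 0.0110) among 11 F-BAR genes. Clmp rose among 8 junctional genes (2.99, FDR 0.00585) and Cd68 fell among 21 lysosome genes (−2.50, FDR 0.0232). Of the 5 kinesin, 6 PR-domain and 3 complement genes tested, 0 were called by edgeR or DESeq2, with 0, 3 and 1 at an unadjusted p under 0.05.

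Organoids of intestine showed the same genes outside the liver lineage. The SO libraries compared here also enter the comparisons above. In FIPC-SOs, Ehf stood at 344, 164 and 194 CPM, Mecom at 140.4, 63.5 and 109, Vsig1 at 38.1, 64.0 and 51.3, Fchsd1 at 9.74, 4.00 and 4.84 and Kif1a at 8.41, 2.22 and 8.07 CPM. dediHep-SOs exceeded them in Fchsd1 (log2 fold change 2.53, SE 0.570, edgeR FDR 0.0150), the 1 of 4 members called beside 4.92% of all genes higher in dediHep-SOs, 3.99% lower and 8.91% in either direction. Vsig1 missed the fold threshold narrowly (1.97, SE 0.298, FDR 0.00200) and passed it without dediHep-SO replicate 1 or without FIPC-SO replicate 2 (2.09 and 2.14). Ehf was at 1.48 (SE 0.390, FDR 0.0298) and Mecom at 0.74 (SE 0.410, FDR 0.253). Gpnmb had 14 counts in FIPC-SOs, 13 of them in replicate 3, where fibroblast and stellate markers summed to 609 CPM against 14.6 and 7.11 in the other two. That replicate had 587 counts of Col1a1, and the part of such cells in its Gpnmb was not tested.

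In ISC-BOs, Ehf stood at 89.9, 133, 199 and 215 CPM and Mecom at 46.7, 20.1, 47.2 and 53.7 CPM. Vsig1 had 10 counts in 2 of the 4 libraries, a log2 fold change of −5.15 against FIPC-SOs (SE 0.697, edgeR FDR 0.000589), the 1 of 5 members called beside 2.62% of all genes lower in ISC-BOs, 4.00% higher and 6.62% in either direction. Mecom was lower by less than the fold threshold (−1.19, SE 0.375, edgeR FDR 0.0660). Between dediHep-BOs and ISC-BOs, Mecom was higher in dediHep-BOs without passing the fold threshold (1.91, SE 0.323, edgeR FDR 0.00638), and it passed without dediHep-BO replicate 3 or ISC-BO replicate 4 (2.02 and 2.06). Ehf differed by 0.78 (SE 0.312, FDR 0.167). That left 0 of 2 members called by edgeR and 0 by DESeq2, with 2 of 2 at an unadjusted p under 0.05, beside 3.05% of all genes (1.34% higher, 1.71% lower). Pamr1 and Gpnmb had no count in any BO library of either origin.

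The difference of dediHep-BOs from dediHep-SOs was set against that of ISC-BOs from FIPC-SOs. These are not the same step: the dediHep pair differs by Cdx2 transduction, whereas the intestinal pair sets adult crypts against fetal intestine. In the paper, SOs formed with Wnt3a and CHIR99021, while dediHep-BOs matured after their removal and crypts were grown without them. Origin, transduction, age and medium thus cannot be told apart. For Fchsd1 the log2 change differed by −3.72 between the origins (SE 0.945, edgeR FDR 0.0238), since it fell in dediHep organoids, while ISC-BOs against FIPC-SOs gave 0.31 (SE 0.652, FDR 0.834). Vsig1 was lower in BOs of both origins, and the difference between these changes did not pass (1.83, SE 1.15, FDR 0.295). Those of Mecom (1.13, SE 0.543, FDR 0.176) and Ehf (−0.73, SE 0.527, FDR 0.362) did not pass either.

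Ehf and Pamr1 lie 620.4 kb apart on chromosome 2, and 4 genes between them passed the low-count filter in some comparison: Slc1a2, Cd44, Pdhx and Apip. Of these, Slc1a2, a glutamate transporter, averaged 17.4 CPM in CLiPs and 0.166 in dediHeps but did not pass the filter of that fit. Cd44, a hyaluronan receptor, differed by 1.05 (SE 0.415, edgeR FDR 0.236), Pdhx by 0.18 and Apip by 0.65, and the genes on either side, Cat, Abtb2, Fjx1 and Gm13868, by −1.30 to −0.12. None of those tested was called there. Between SOs and aggregates, where Ehf rose and Pamr1 was not called, Cd44 rose (2.53, SE 0.387, edgeR FDR 0.000741) and Cat (−2.17, FDR 0.000445) and Abtb2 (−3.25, FDR 7.85e-05) fell.

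**Figure D5:**
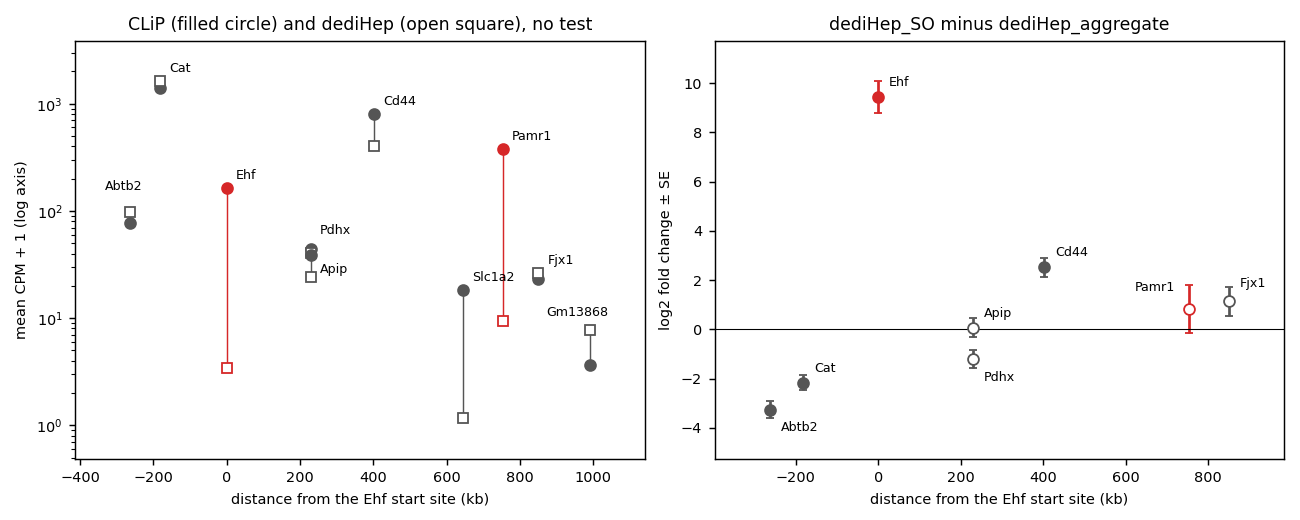
Genes around Ehf and Pamr1 by distance from the Ehf start site (kb, positive toward Pamr1). Left, mean CPM + 1 (log axis) in CLiPs (circles) and dediHeps (squares), with no test, since these libraries chose Ehf and Pamr1 (red), and with Slc1a2 between them at 17.4 and 0.166 CPM. Right, log2 fold change ± SE (edgeR) of dediHep-SOs minus aggregates, with filled points called, where Ehf is at 9.43 and Pamr1 at 0.83.

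Across the 16 conditions the 7 genes did not follow a single pattern. As a description over condition means, which share libraries, depth and the choice of genes, Mecom and Vsig1 had a Pearson r of 0.83 (0.86 over the 14 conditions without CLiPs and dediHeps). Kif1a and Gpnmb had 0.76 and 0.68, Pamr1 and Gpnmb 0.77 and 0.43, Fchsd1 and Pamr1 0.75 and 0.53. Ehf, chosen as high in CLiPs, ran with Mecom (0.69, and 0.89 over 14) more than with Kif1a (0.03 and −0.17). Among 17561 genes with at least 30 counts, those most like each member over the 16 condition means were Ankrd6, Atp6v0e2 and Fam217b for Kif1a (r 0.95 to 0.97), Fstl3, Ipo13 and Ist1 for Fchsd1 (0.92 to 0.93), and Mmp7, Neurl1b and Spint1 for Ehf (0.96 to 0.98). They were Parp8, Gxylt2 and Spaca7 for Pamr1 (0.94 to 0.95), Mark1, Nat8l and Scn7a for Gpnmb (0.92 to 0.95), Lgals2, Kbtbd11 and Paqr5 for Mecom (0.94 to 0.95) and Mmp28, Mcpt2 and Mucl3 for Vsig1 (0.93 to 0.98). Over the 14 other conditions, 2 of the 3 stayed among the 3 most alike for Kif1a, 1 for Ehf and Vsig1, and 0 for Fchsd1, Pamr1, Gpnmb and Mecom.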

How the data were processed

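The authors deposited 1 table of UMI counts per Ensembl gene, not normalized, for 49 CEL-seq2 libraries. Their notes name bcl2fastq 2.20, Bowtie2 2.3.1, HTSeq 0.6.0 and GRCm38, and the annotation is not given in the sources used here. Symbols came from GENCODE M21 (45143 of 46078 identifiers). Groups follow the sample titles. The 7 genes, the family and marker lists and the tests were chosen with earlier results of these data known.

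Each comparison was fitted on all genes of its own libraries, the time points in 1 fit, by edgeR 4.0.16 (quasi-likelihood, R 4.3.3) after TMM scaling. Low genes were dropped by filterByExpr, set to a count of 10 and a total of 15, and p-values were adjusted by Benjamini-Hochberg over all genes tested (FDR). An SE is the log2 fold change divided by the root of F. Named are the 7 genes in each comparison, the 2 called list genes with the largest change in each direction, the genes around Ehf and Pamr1 and the 3 most alike per member. Other genes were named after their values were seen. Folds of pooled counts and their 95% exact intervals cover counting error only. The fits were tested on simulated data. Alternatives were RLE, DESeq2 1.42.0, other filters, a single fit, another threshold, replicate blocks and leaving out each library. Added after seeing the data were the test between the origins of organoids and the block by the number in the descriptions. So was the fit without 1-week replicate 1 and 2-week replicates 1 and 2. The highest count of any gene was 4096, which limits the most abundant genes. None of the 7 reached it in a library, and whether their higher counts are also held down was not tested. Replicates differed by more than counting noise (chi-square per degree of freedom 6.29 to 74.5).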

Additional observations from a re-analysis of the deposited data

Results flagged for a closer look

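Among the 5 dediHep libraries, whose values chose the genes, 1 library lay far from the rest for 4 of the genes by the gap that Dixon's 95% limit sets, which is given as a description and not as a test. Kif1a in dediHep replicate 4 was 0 CPM, with the next lowest library at 2.04. Gpnmb in the same replicate was 0.416 CPM, a single count, with 0 in the other 4 libraries, where any count would give such a gap. Mecom in dediHep replicate 5 was 61.2 CPM, with the next at 42.5, and Vsig1 in replicate 3 was 515 CPM, with the next at 237. Such counts need not follow the normal spread that the limit assumes, so that no rate by chance is given for the 12 groups examined. The difference of Fchsd1 between dediHep-BOs and dediHep-SOs, less that between ISC-BOs (adult) and FIPC-SOs (fetal), was −3.72 on the log2 scale (SE 0.945, edgeR FDR 0.0238). Without each library in turn it was −4.26 to −3.26, with an FDR of 0.00612 to 0.0718.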

How the results depend on the processing

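Outside leave-one-out fits, 362 of 388 values for the 7 genes kept their direction and side of the threshold, and with libraries left out 323 of 359 did. Both totals include CLiPs against dediHeps, which chose the genes. There a value counted as kept when its direction held and it moved by less than 1 SD. The second total also holds the fit without 1-week replicate 1 and 2-week replicates 1 and 2. No call of a member changed sign. Where a call was lost or gained and no value above shows why, the cause was not tested. Libraries with the same number in their titles did not all deviate together outside the 2 verteporfin pairs (r 0.436, too few to judge). In the time course 24 of 63 such pairs correlated above 0.1 (r −0.581 to 0.626) and between dediHep-SOs and FIPC-SOs 2 of 3 (up to 0.554). By the number in the descriptions, which is shifted at 3 h, 23 of 51 pairs did, and 8 of 21 libraries were most like their own number. That number as a replicate block, chosen after seeing the data, gave the same calls of members as the title number and 264 genes at 3 h rather than 860, with 1 library of that time sharing a number with other times. Cultures shared by SOs and aggregates did not deviate together (r −0.164 and −0.0737). With the number as a replicate block, Mecom in BOs against SOs turned to 0.041 and Kif1a in ISC-BOs against FIPC-SOs to 0.19, both uncalled, Mecom in dediHep-BOs against ISC-BOs was called (2.11), Kif1a at 2 days was called (FDR 0.0863), Pamr1 lost its calls at 2 and 4 days and at 2 weeks, and verteporfin called 59 genes rather than 28. CLiPs against dediHeps gave 534 with DESeq2, 714 without a low-count filter, 1169 in 1 fit of all 49 libraries, and 109 (without CLiP replicate 1) to 488 with a library left out, with 224 without dediHep replicate 2. At an FDR under 0.05 and any fold, the counts from 3 h to 2 weeks were 1447, 4049, 4652, 4980, 5261 and 5981, and aggregates, SOs against aggregates, BOs against SOs, dediHep-SOs against FIPC-SOs, dediHep-BOs against ISC-BOs and ISC-BOs against FIPC-SOs gave 2552, 2959, 3268, 1900, 618 and 1441. Without a filter, these 6 gave 3007, 2662, 2385, 2052, 798 and 1504, and verteporfin 90. With at least 1 CPM in 2 libraries they gave 2791, 2504, 2246, 1869, 620 and 1337. In 1 fit of 49 libraries verteporfin gave 0, aggregates 2725, BOs against SOs 1953 and dediHep-SOs against FIPC-SOs 1558. Leaving out a library gave 620 to 1527 at 3 h (1527 without FH replicate 1), 33 to 106 for verteporfin (106 without verteporfin replicate 2, 63 and 43 without DMSO replicate 1 and 2), 1234 to 2108 for BOs against SOs and 1023 to 1716 for dediHep-SOs against FIPC-SOs (both highest without dediHep-SO replicate 3). Uncalled log2 fold changes that turned ran from −4.28 to 2.24 for Mecom at 3 h, −0.31 to 1.23 at 2 days, −1.06 to 0.49 at 4 days and −0.22 to 0.43 in BOs against SOs, from −0.14 to 5.08 for Pamr1 at 1 week and −0.19 to 3.72 in SOs against aggregates, and from −0.52 to 1.34 for Fchsd1 with verteporfin. In ISC-BOs against FIPC-SOs they ran from −0.90 to 0.14 for Kif1a, −0.16 to 0.85 for Fchsd1 and −0.65 to 0.033 for Ehf. Of 112 condition means, 111 moved by less than 1 SD under TMM scaling over all libraries. Depth limits Gpnmb most, with 184 counts in all libraries.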
